A study of Mus musculus with 16 samples.

Results

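The 44 genes described here drive or restrain cell division: 23 act in G1 or S phase, 19 in G2 or mitosis, and 2 inhibit cyclin-dependent kinases. They were taken by gene name from 56268 genes in the expression table, and the assignment to phases and roles follows textbook function, not the measured values. The genes themselves were chosen with earlier results of these data known. All 44 were found, and all 44 passed a filter of at least 1 FPKM (fragments per kilobase, scaled to library size) in at least 4 libraries, among 13255 genes that did so. RNA sequencing measured colonic epithelial cells of mice in 4 groups of 4 libraries. The cKO_DSS group carried floxed Rictor with Villin-Cre and received 3% dextran sulfate sodium (DSS), which injures the colonic epithelium, in the drinking water. The WT_DSS group carried Villin-Cre alone and received 3% DSS. The cKO and WT groups had those same genotypes and normal water. Villin-Cre was thus present in all 4 groups, including the controls called WT, and it drives Cre in intestinal epithelium, so other cell types keep Rictor. Rictor encodes a subunit that mTOR complex 2 needs to form, and the study addressed that complex in colitis. The labels name no strain, age or duration of DSS. Nor do they state that each library is a different animal, and the p-values therefore reflect a spread between libraries that may be technical.

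A dividing cell first licenses its replication origins by loading the helicase formed by Mcm2 to Mcm7. E2F transcription factors, released when G1 cyclins and their kinases inactivate the retinoblastoma proteins, switch on many of the genes for S phase. Genes for mitosis are expressed later, largely through the Myb-MuvB complex and Foxm1. In the colon, division is restricted to the lower crypt, whose cells replace the surface epithelium and refill wounds after injury.

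Markers of the labelled cell type were high, and the epithelial adhesion molecule Epcam lay at 754 to 866 FPKM in cKO_DSS libraries, 763 to 831 in WT_DSS, 639 to 714 in cKO and 695 to 762 in WT. Libraries held 13911823 to 16414914 reads recovered from the FPKM values, with 4.74 to 15.1% from mitochondrial genes. Rictor averaged 2.51 ± 0.46 FPKM in cKO_DSS, 3.63 ± 0.57 in WT_DSS, 2.47 ± 0.24 in cKO and 2.80 ± 0.44 in WT (SD, n = 4 each), and it was called in neither genotype comparison (limma adjusted p = 0.0761 after DSS and 0.582 on water). These FPKM cover the whole gene, so transcripts lacking only the deleted part still count. The water and DSS libraries differed in sex-linked reads, with 2924 to 4533 reads of 4 Y-linked genes in cKO_DSS and 2681 to 3533 in WT_DSS, against 0 to 1856 in cKO and 0 to 1377 in WT. The female-specific RNA Xist had 0 to 4 reads in cKO_DSS and 1 to 5275 in WT_DSS, where WT_DSS 2 held the 5275. It had 12235 to 25600 in cKO and 10022 to 17416 in WT. Both kinds were present in WT 1, 2 and 4, with 792, 1377 and 648 Y-linked reads and 12362, 10162 and 10022 Xist reads. The same held for cKO 1 and 2 (635 and 1856 Y-linked, 21753 and 12235 Xist) and for WT_DSS 2 (2681 and 5275). WT 3, cKO 3 and cKO 4 held 0 Y-linked reads. Whether a library mixes animals of both sexes was not tested. The clock output gene Dbp lay at 0.135 to 0.632 FPKM in cKO_DSS and 0.230 to 2.26 in WT_DSS, against 7.02 to 16.4 in cKO and 1.52 to 28.4 in WT, where WT 4 was the lowest. Libraries cKO_DSS 3 and 4 stood apart on the second principal component, at -33.9 and -32.2 against -17.1 to 21.2 in the others.

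With DSS, transcript levels of many G1/S genes fell in both genotypes, and those of G2/M genes fell in 8 cases in cKO and in 1 in WT. The difference between genotypes in the response was itself called for no member. In cKO_DSS against cKO, 25 of 44 members fell and none rose: 16 of 23 G1/S genes, 8 of 19 G2/M genes and the inhibitor Cdkn1a. Among WT_DSS libraries against WT, 13 fell and 3 rose: 11 G1/S genes fell and 1 rose, 1 G2/M gene fell and 1 rose, and the inhibitors went opposite ways. A gene was called, and is said to have risen or fallen, when its adjusted p in limma was under 0.05 over all 13255 genes. Of all these genes 14.7% were called in cKO_DSS against cKO (8.07% higher, 6.64% lower) and 28.5% in WT_DSS against WT (15.0% higher, 13.5% lower). With only the 8 libraries of a comparison fitted, 19 members fell in cKO_DSS against cKO, 14 of G1/S and 4 of G2/M, beside 11.6% of all genes called. The G2/M genes that lost their call were Ccnb2, Top2a, Cenpe and Kif20a, and the G1/S genes were Cdk4 and Ccne1. In WT_DSS against WT the same fit called 17, beside 27.5% of all genes, with Top2a added as higher. Fold changes are differences of log2(FPKM + 1), which understates the change of low genes.

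**Figure D1:**
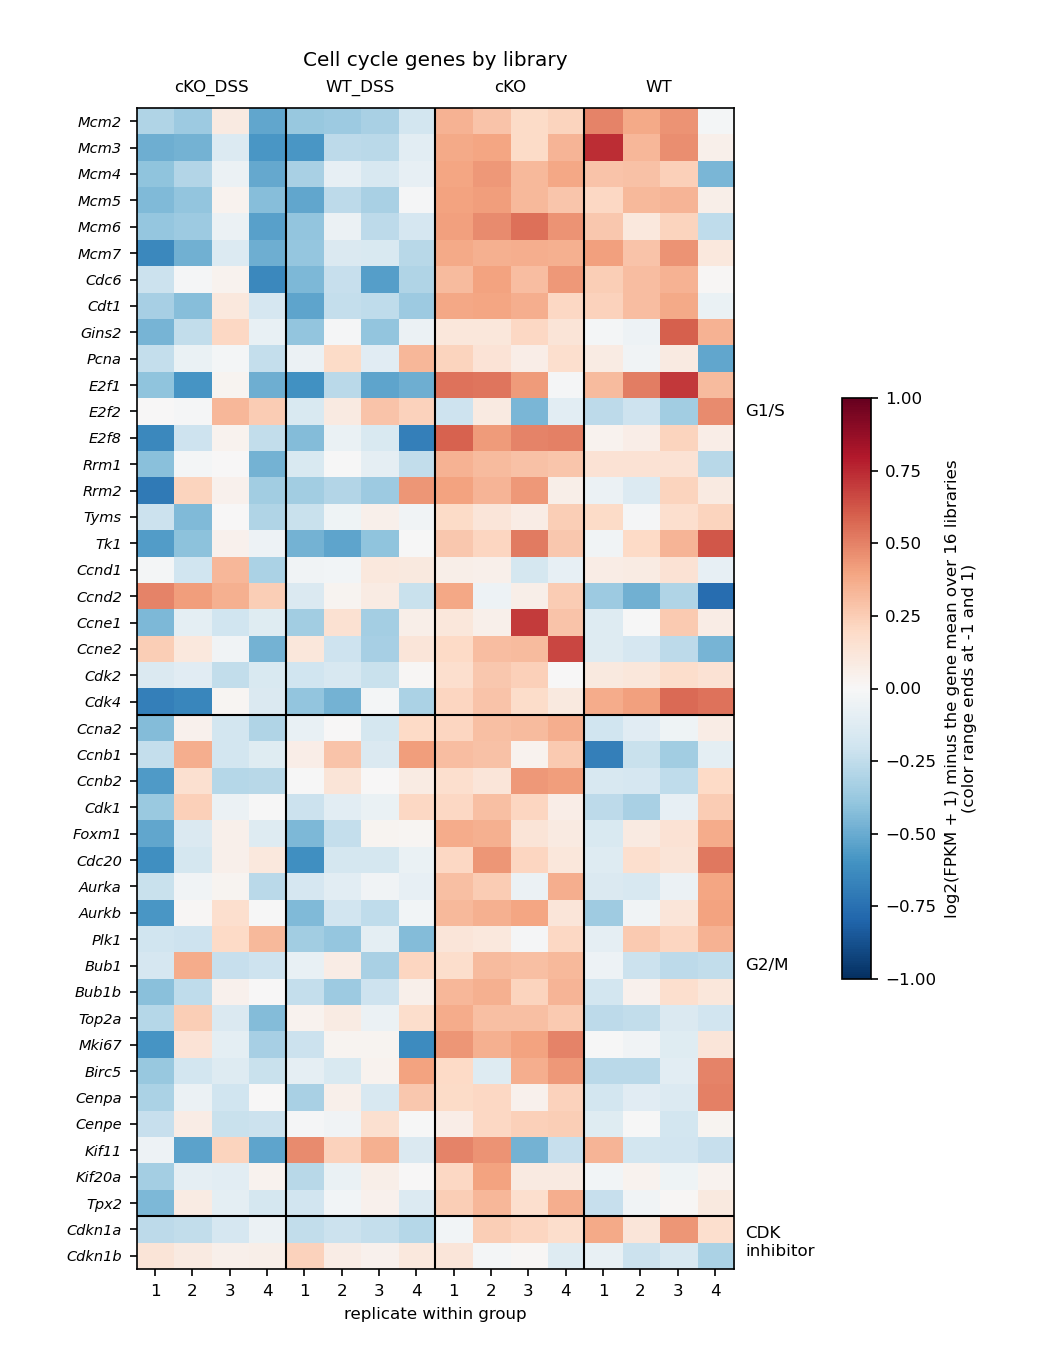
Level of each of the 44 genes in each of the 16 libraries, as log2(FPKM + 1) minus the gene's mean over the libraries, with genes grouped by role and libraries by group. Averaged over Mcm2 to Mcm7, the DSS libraries lie at -0.51 to -0.04 and the water libraries at 0.29 to 0.40, apart from WT 4 at -0.09.

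The median log2 fold change of the 23 G1/S genes was -0.54 in cKO_DSS against cKO, and that of the 19 G2/M genes was -0.40, beside -0.01 over all genes tested. The WT_DSS medians against WT were -0.31 for G1/S and -0.04 for G2/M, again beside -0.01 over all genes. The median of the G2/M genes thus exceeded that of the G1/S genes by 0.14 in cKO and by 0.27 in WT. Neither difference was tested, and per library the DSS and water groups overlapped, as given below. Without WT 4 the difference in WT was 0.52, and without WT 4 and WT_DSS 2 it was 0.53. The 11 G1/S genes that fell in WT made up 11 of the 16 that fell in cKO. No G2/M gene was called lower in both genotypes.

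Averaged per library over the 23 G1/S genes, the level relative to each gene's mean over all libraries was -0.20 ± 0.16 in cKO_DSS and -0.19 ± 0.10 in WT_DSS, against 0.27 ± 0.02 in cKO and 0.13 ± 0.10 in WT (log2, SD, n = 4 each). The highest DSS library, cKO_DSS 3 at 0.03, lay between the lowest WT library, WT 4 at 0.01, and the other water libraries, so DSS and water overlapped only there. Averaged over the 19 G2/M genes it was -0.14 ± 0.16 in cKO_DSS and -0.06 ± 0.08 in WT_DSS, against 0.24 ± 0.05 in cKO and -0.04 ± 0.14 in WT. The 4 cKO libraries, at 0.18 to 0.28, lay above all others in the G2/M mean, where WT 4 was next at 0.17 and the other 3 WT libraries lay at -0.17 to -0.06. The lowest G2/M mean was that of cKO_DSS 1, at -0.37. The G2/M mean minus the G1/S mean was -0.095 to 0.224 in cKO_DSS and -0.085 to 0.003 in cKO. There cKO_DSS 2 and 4 lay above every cKO library, and cKO_DSS 1 and 3 did not. It was 0.090 to 0.157 in WT_DSS and -0.307 to 0.158 in WT. WT 4 lay above every WT_DSS library, and the other WT libraries lay below all of them.

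**Figure D2:**
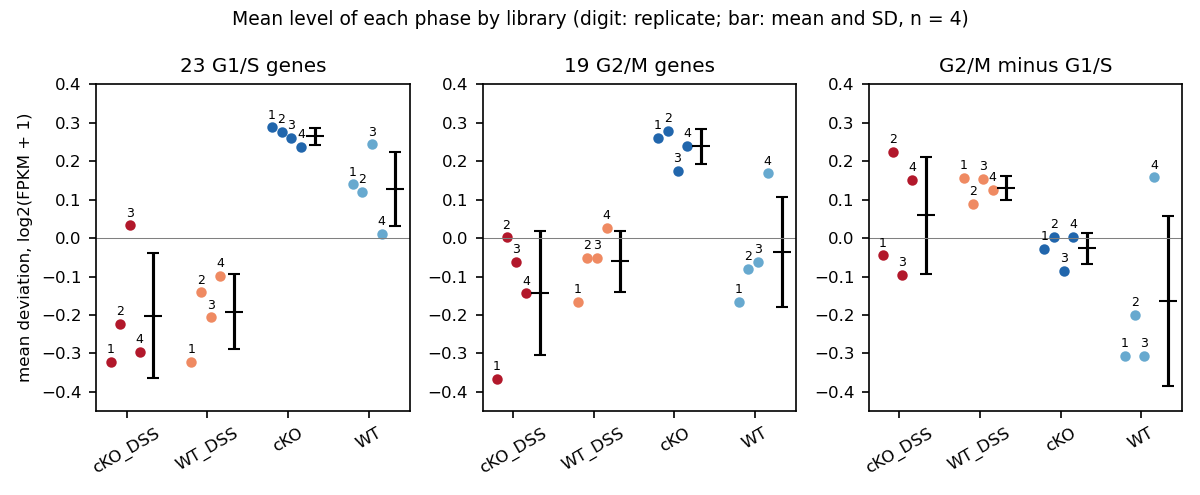
Mean level of the G1/S genes and of the G2/M genes in each library (points), as log2(FPKM + 1) relative to each gene's mean over the 16 libraries, with bars for the group mean and SD, and the G2/M mean minus the G1/S mean in the third panel. G1/S means of the DSS groups average -0.20 and -0.19 and those of the water groups 0.27 and 0.13, and the cKO group on water has the highest G2/M mean, 0.24.

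Several measures moved with the DSS groups beside the cell cycle genes. The 4 markers of crypt base stem cells (Lgr5, Ascl2, Smoc2, Axin2) summed to 6.21 to 8.39 FPKM in cKO_DSS and 6.69 to 11.5 in WT_DSS, against 18.1 to 23.8 in cKO and 16.1 to 21.9 in WT. All 4 fell in cKO_DSS against cKO, and 2 of 4, Ascl2 and Axin2, fell in WT_DSS against WT. In these bulk samples fewer crypt cells and less RNA per cell cannot be told apart. Fibroblast markers summed to 5.51 to 7.08 FPKM in cKO_DSS and 8.30 to 9.91 in WT_DSS, against 3.19 to 4.01 in cKO and 2.06 to 3.49 in WT, with 2 of 3 tested members higher in cKO_DSS and 3 of 3 in WT_DSS. Macrophage and monocyte markers summed to 6.54 to 10.9996 FPKM in cKO_DSS and 6.42 to 9.77 in WT_DSS, against 3.84 to 6.45 in cKO and 3.66 to 5.83 in WT, with 2 of 3 tested members higher in each genotype and Cd68 lower in WT_DSS. The neutrophil markers S100a8 and S100a9 were at 0 in all cKO_DSS and cKO libraries and at most 0.398 FPKM in the rest. Another of that list, Ly6g, lay at 39.9 to 76.7 FPKM in cKO_DSS and 31.5 to 38.9 in WT_DSS, against 38.4 to 63.3 in cKO and 46.6 to 58.5 in WT, and it fell in WT_DSS against WT. Of 6 epithelial markers, Epcam rose in cKO_DSS against cKO, and Krt19 and Cdx2 fell in WT_DSS against WT. None of the 3 tested T cell markers was called, and no endothelial marker passed the filter. The B and plasma cell marker Jchain rose in WT_DSS against WT. Of 6 surface colonocyte markers, 1 rose and 1 fell in cKO_DSS against cKO, and 2 fell in WT_DSS against WT. Over all genes tested, 8.07% rose and 6.64% fell in cKO_DSS against cKO, and 15.0% rose and 13.5% fell in WT_DSS against WT. The part of these cell types in the results on cell cycle genes was not tested.

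Fold changes in WT_DSS against WT also followed base composition across genes, with a Spearman rho against GC content of -0.53. In cKO_DSS against cKO they hardly did, with a rho of 0.05. That value averages opposite trends within cKO_DSS. Levels relative to each gene's mean correlated with GC content at -0.255 and -0.375 in cKO_DSS 1 and 2. In cKO_DSS 3 and 4 they did so at 0.399 and 0.388, against -0.226 to 0.0052 in the cKO libraries. Median GC content was 50.9% for the G1/S genes, 47.8% for the G2/M genes and 49.5% for all genes tested. With the GC trend removed from each library, 28 members fell and none rose in cKO_DSS against cKO, beside 8.62% of all genes lower and 10.9% higher. In WT_DSS against WT 15 fell and 1 rose, beside 8.80% lower and 10.9% higher. The difference of the G2/M and G1/S medians was then 0.14 in cKO and 0.28 in WT. With the Y-linked level as a covariate, 2 members fell in cKO_DSS against cKO, Mcm6 and Mcm7, beside 0.671% of all genes. With it 6 fell in WT_DSS against WT, Mcm2, Mcm3, Mcm7, E2f1, Cdk4 and Cdkn1a, beside 2.66% of all genes. All other member calls in these comparisons were lost with the covariate, which is not repeated for each gene below. Under that covariate the medians were -0.50 for G1/S and -0.43 for G2/M in cKO_DSS against cKO, and -0.24 and -0.06 in WT_DSS against WT. The difference of the G2/M and G1/S medians was 0.07 in cKO and 0.18 in WT. SEs were wider, at 0.15 in cKO and 0.13 in WT for Mcm7, against 0.10 without the covariate. The Y-linked reads of DSS and water libraries do not overlap, and Dbp differed too, so treatment, sex and clock state cannot be fully told apart in these libraries.

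All 9 licensing and helicase genes had log2 fold changes below 0 with DSS in both genotypes. In cKO_DSS against cKO, 8 of these genes fell, including all 6 helicase subunits, with a median log2 fold change of -0.66. Against WT, 6 of 9 fell in WT_DSS, with a median of -0.55. Mcm7 (chr5:138164583-138172422, minus strand, mm10), a subunit of the replicative helicase, was measured at 7.01, 7.98, 10.4 and 7.93 FPKM in cKO_DSS 1 to 4, against 15.3, 15.03, 15.1 and 15.1 in cKO 1 to 4. The WT_DSS libraries 1 to 4 gave 8.58, 10.3, 10.3 and 9.36 FPKM, against 15.6, 14.3, 16.1 and 12.5 in WT 1 to 4. Every DSS library lay below every water library, with cKO_DSS 3 the highest of its group and WT 4 the lowest of its own.

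Mcm7 fell by 0.80 ± 0.10 SE in cKO_DSS against cKO (adjusted p = 0.000278) and by 0.55 ± 0.10 SE in WT_DSS against WT (adjusted p = 0.00263). Mcm6 averaged 12.97 ± 2.02 FPKM in cKO_DSS and 23.4 ± 0.99 in cKO (SD, n = 4 each), a log2 fold change of -0.81 ± 0.12 SE (adjusted p = 0.000595). In WT_DSS it averaged 14.1 ± 1.502 FPKM against 17.8 ± 2.87 in WT, which was not called. Mcm4 likewise fell in cKO_DSS against cKO (-0.70 ± 0.15 SE, adjusted p = 0.00528) and was not called in WT_DSS. Mcm2, Mcm3 and Mcm5 fell in both: in cKO_DSS against cKO by 0.54 ± 0.13, 0.75 ± 0.14 and 0.66 ± 0.12 SE, and in WT_DSS against WT by 0.64 ± 0.13, 0.70 ± 0.14 and 0.51 ± 0.12 SE. Of the loaders, Cdt1 fell by 0.55 ± 0.12 SE in cKO_DSS and by 0.56 ± 0.12 SE in WT_DSS. Cdc6 fell by 0.57 ± 0.14 SE in cKO_DSS and by 0.61 ± 0.14 SE in WT_DSS, at 0.676 to 2.54 FPKM in the 16 libraries. The call for Cdt1 in WT_DSS was lost with the GC correction. Gins2, of the GINS complex that activates the helicase, was at 0.905 to 2.97 FPKM and was called in no comparison.

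The promoters of the members were read for the elements that E2F factors and the mitotic complexes are known to bind. The windows run from 250 bases before to 50 bases after the RefSeq start, on GRCm38.p6, the assembly of mm10. E2F sites were searched as TTTCCCGC, TTTCGCGC, TTTGCCGC and TTTGGCGC, the cell cycle homology region (CHR) as TTTGAA and TTCGAA, and the CCAAT box as CCAAT, all on both strands. Capitals mark every match. The Mcm7 window (chr5:138171834-138172133, minus strand) held 2 E2F sites, 1 CHR and 3 CCAAT boxes, and its last E2F site overlaps a CCAAT box by 1 base. For Mcm3 (chr1:20820275-20820304, minus strand), Mcm5 (chr8:75109349-75109378, plus strand) and Mcm6 (chr1:128359734-128359763, minus strand), 30 bases around an E2F site are shown, with that site in capitals.
Mcm7: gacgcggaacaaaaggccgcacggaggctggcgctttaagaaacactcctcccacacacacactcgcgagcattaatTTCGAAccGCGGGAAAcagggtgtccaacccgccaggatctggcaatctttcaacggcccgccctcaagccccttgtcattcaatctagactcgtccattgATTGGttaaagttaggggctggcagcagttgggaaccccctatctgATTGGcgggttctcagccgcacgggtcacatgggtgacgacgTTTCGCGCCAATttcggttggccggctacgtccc
Mcm3: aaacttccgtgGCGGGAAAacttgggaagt
Mcm5: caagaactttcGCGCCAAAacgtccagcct
Mcm6: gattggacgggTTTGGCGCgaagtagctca

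A promoter was in the RefSeq table for 34 of the 44 members, 18 of G1/S and 14 of G2/M. An E2F site was in 8 of the 18 G1/S windows (44.4%; Cdc6, Cdk2, Cdt1, E2f2, Mcm3, Mcm5, Mcm6 and Mcm7) and in 1 of the 14 G2/M windows (7.14%; Cdk1), beside 4.13% of the tested genes' windows and 2.32% of all 27025 windows. A CHR was in 3 of 18 G1/S windows (16.7%) and 11 of 14 G2/M windows (78.6%), beside 14.3% of the tested genes' and 19.4% of all windows. A CCAAT box was in 61.1% of the G1/S and 92.9% of the G2/M windows, beside 39.0% and 37.9%. The windows of E2f1, Tk1 and Cdk4 held none of these letters, and that of Pcna held 1 CCAAT box. Among the helicase genes, the Mcm2 window held no E2F site, and Mcm4 had no promoter in the RefSeq table. In 31 of the 34 members the window reached past the 5′ end of the gene as the expression table gives it. Those of Mcm7, Cdc6 and E2f1 lay wholly inside that gene, with RefSeq starts 539, 350 and 466 bases downstream of its 5′ end, so they do not cover a start at that end. A match is a string of letters, not a measured binding site, and its relation to the fold changes was not tested.

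The E2F factors themselves changed unevenly. E2f1 (chr2:154559407-154569892, minus strand), an activator of S phase genes, was at 1.52, 1.22, 2.39 and 1.38 FPKM in cKO_DSS 1 to 4, against 3.86, 3.84, 3.47 and 2.30 in cKO 1 to 4. WT_DSS 1 to 4 had 1.19, 1.77, 1.32 and 1.38 FPKM, against 3.16, 3.75, 4.43 and 3.16 in WT 1 to 4. The WT groups do not overlap, while cKO_DSS 3 lies just above cKO 4.

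E2f1 fell by 0.94 ± 0.15 SE in WT_DSS against WT (adjusted p = 0.00115), the smallest p of all members in that comparison, and by 0.74 ± 0.15 SE in cKO_DSS against cKO (adjusted p = 0.00523). It rests on 52 to 209 reads per library, so its values are less precise than those of the other genes given by library. E2f8, a repressor of the E2F family, averaged 3.56 ± 0.85 FPKM in cKO_DSS and 6.67 ± 0.36 in cKO (SD, n = 4 each; -0.77 ± 0.14 SE, adjusted p = 0.00233). It averaged 3.34 ± 0.82 FPKM in WT_DSS and 4.79 ± 0.35 in WT (-0.43 ± 0.14 SE, adjusted p = 0.0316). That call was lost without WT_DSS 1 or 4, without WT 2, 3 or 4, and with no FPKM filter. E2f2, another activator, was called in neither, at 6.98 ± 0.98 FPKM in cKO_DSS and 6.83 ± 1.03 in WT_DSS, against 5.44 ± 1.01 in cKO and 5.95 ± 2.03 in WT.

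Among genes for nucleotide supply, Tk1 (chr11:117815526-117826092, minus strand), the thymidine kinase of S phase, was at 3.52, 3.99, 5.84 and 5.41 FPKM in cKO_DSS 1 to 4, against 7.02, 6.71, 8.499 and 7.03 in cKO 1 to 4. In WT_DSS 1 to 4 it was at 3.79, 3.60, 4.02 and 5.61 FPKM, against 5.50, 6.62, 7.40 and 9.20 in WT 1 to 4. The cKO groups do not overlap, and WT_DSS 4 lies just above WT 1. Tk1 fell by 0.56 ± 0.16 SE in cKO_DSS against cKO (adjusted p = 0.0278). That call was lost without cKO_DSS 1 or 2, without cKO 1, 3 or 4, and with no FPKM filter. In WT_DSS against WT Tk1 fell by 0.63 ± 0.16 SE (adjusted p = 0.0108), a call lost without WT 4 and WT_DSS 2 together. Rrm1, the large subunit of ribonucleotide reductase, fell in cKO_DSS against cKO (-0.53 ± 0.12 SE, adjusted p = 0.00857), as did Tyms, the thymidylate synthase (-0.40 ± 0.10 SE, adjusted p = 0.0125). In WT_DSS neither was called, and Rrm2, the small reductase subunit, was called in no comparison.

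Pcna (chr2:132249162-132253314, minus strand), the sliding clamp of the replicative polymerases, was called in no comparison. It was at 30.5, 34.3, 35.5 and 30.5 FPKM in cKO_DSS 1 to 4, against 42.2, 39.8, 37.7 and 40.7 in cKO 1 to 4. The WT_DSS libraries 1 to 4 gave 34.5, 41.2, 33.3 and 45.6 FPKM, against 38.2, 35.1, 38.5 and 24.9 in WT 1 to 4. The cKO groups do not overlap and the WT groups do, with WT 4 far below the other 3 WT libraries. Its log2 fold change was -0.29 in cKO_DSS against cKO (adjusted p = 0.153) and 0.18 in WT_DSS against WT (adjusted p = 0.305).

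G1 cyclins and kinases went in different directions. Cdk4 (chr10:127063534-127067920, plus strand), the kinase partner of D-type cyclins, was at 9.96, 10.2, 16.9 and 14.9 FPKM in cKO_DSS 1 to 4, against 19.4, 20.5, 19.03 and 17.9 in cKO 1 to 4. WT_DSS 1 to 4 had 12.4, 11.7, 16.4 and 13.1 FPKM, against 21.9, 22.5, 25.1 and 24.7 in WT 1 to 4. Every DSS library lay below every water library, and cKO_DSS 3 and 4 lay well above cKO_DSS 1 and 2. Cdk4 fell by 0.56 ± 0.14 SE in cKO_DSS against cKO (adjusted p = 0.0171), a call lost with only those 8 libraries fitted. In WT_DSS against WT it fell by 0.77 ± 0.14 SE (adjusted p = 0.00248). Cdk2, the partner of cyclin E, fell by 0.33 ± 0.07 SE in cKO_DSS against cKO and by 0.28 ± 0.07 SE in WT_DSS against WT. Ccne1, cyclin E1, fell in cKO_DSS against cKO (-0.50 ± 0.15 SE, adjusted p = 0.0402), a call lost without cKO_DSS 1, 3 or 4 or without cKO 3 or 4. The Ccne1 call was also lost with the 8 libraries alone, no FPKM filter, quantile normalization or sample quality weights, and without cKO_DSS 3 and 4 together.

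Ccnd2 (chr6:127125162-127152193, minus strand), cyclin D2, was the only G1/S gene called higher with DSS. It was at 40.0, 37.9, 36.1 and 33.4 FPKM in cKO_DSS 1 to 4 and 25.3, 28.6, 29.7 and 24.0 in WT_DSS 1 to 4. On water it was at 37.1, 27.0, 29.3 and 33.6 FPKM in cKO 1 to 4 and 21.6, 19.8, 22.6 and 16.1 in WT 1 to 4. The cKO libraries lay above the WT libraries within each treatment, and WT_DSS lay above WT. Ccnd2 rose in WT_DSS against WT (0.41 ± 0.12 SE, adjusted p = 0.0190), a call lost without WT_DSS 2 or WT 4, without both together, and with the GC correction. In cKO_DSS against cKO it was not called. Ccnd1, cyclin D1, lay within 12.5 to 20.2 FPKM in all libraries and was called in no comparison.

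**Figure D3:**
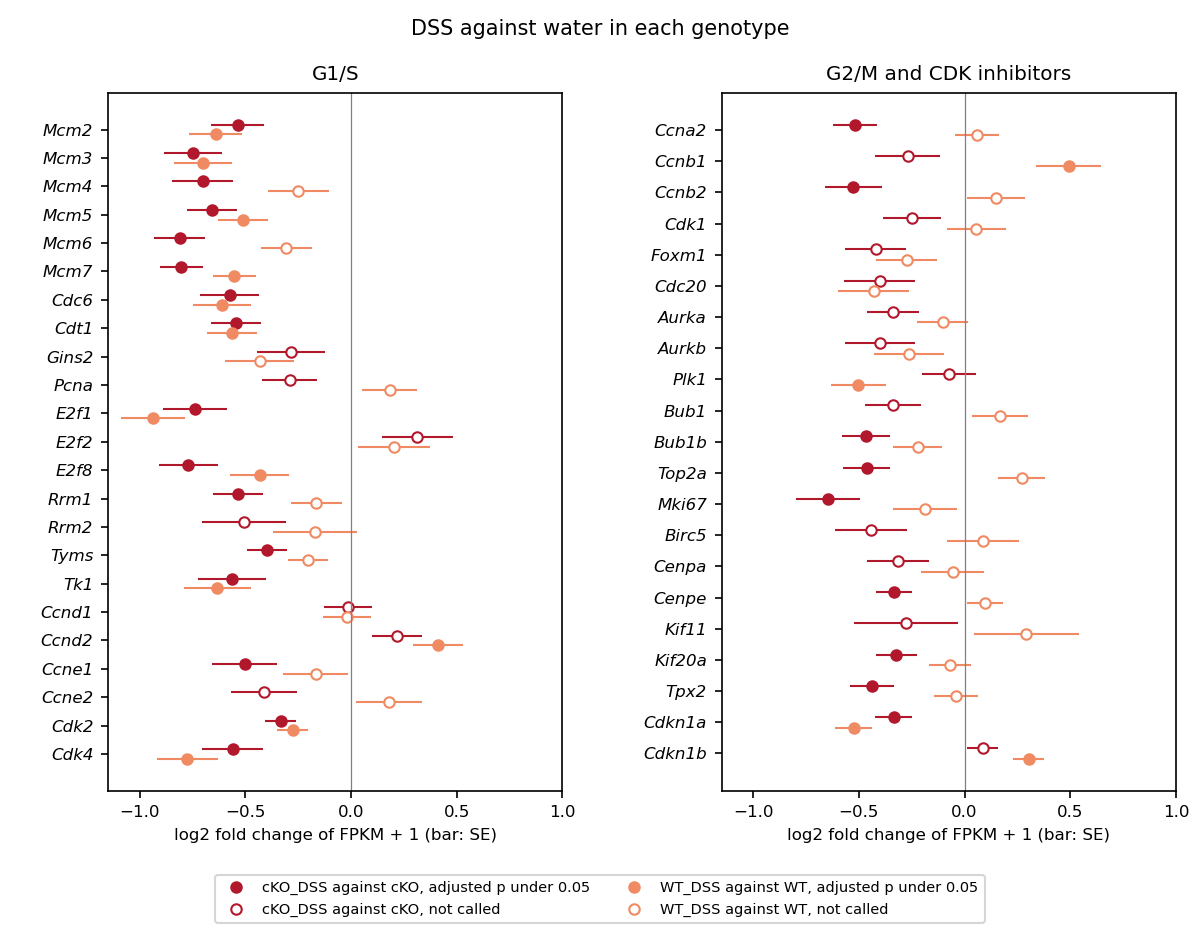
Log2 fold change of FPKM + 1 with DSS for each member in cKO and in WT (points, with bars for the SE), filled where the adjusted p is under 0.05. G1/S points lie mostly left of 0 in both genotypes, with medians of -0.54 and -0.31, while the G2/M medians are -0.40 and -0.04.

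Among the cyclins of G2 and mitosis, 2 fell in cKO_DSS against cKO and 1 rose in WT_DSS against WT. Ccnb1 (chr13:100778650-100786570, minus strand), cyclin B1, was at 7.98, 12.6, 8.33 and 8.71 FPKM in cKO_DSS 1 to 4, against 12.1, 12.0, 9.85 and 11.7 in cKO 1 to 4. In WT_DSS 1 to 4 it was at 10.1, 11.9, 8.56 and 13.1 FPKM, against 5.60, 8.07, 7.30 and 8.91 in WT 1 to 4. The cKO groups overlap through cKO_DSS 2 alone, and the WT groups overlap through WT_DSS 3 and WT 4. Ccnb1 rose in WT_DSS against WT (0.49 ± 0.15 SE, adjusted p = 0.0290). That call was lost without WT_DSS 1, 2 or 4, without WT 1 or 3, and with the GC correction or no FPKM filter. Leaving out WT 4 and WT_DSS 2 together also lost that call. In cKO_DSS against cKO Ccnb1 was not called.

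Ccna2, cyclin A2, which acts in S phase and G2, averaged 12.8 ± 1.99 FPKM in cKO_DSS and 18.6 ± 0.82 in cKO (SD, n = 4 each; -0.52 ± 0.10 SE, adjusted p = 0.00449). Ccnb2, cyclin B2, averaged 18.2 ± 4.14 FPKM in cKO_DSS and 26.4 ± 3.09 in cKO (-0.53 ± 0.14 SE, adjusted p = 0.0182), a call lost without cKO 3 or 4 and without cKO_DSS 3 and 4 together. Neither was called in WT_DSS against WT, where Ccna2 averaged 14.9 ± 1.79 FPKM in WT_DSS and 14.2 ± 1.24 in WT. Their partner kinase Cdk1, at 5.28 to 9.01 FPKM, and the mitotic transcription factor Foxm1, at 2.72 to 5.92 FPKM, were called in no comparison.

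Among mitotic kinases and checkpoint genes, Plk1 (chr7:122159439-122169873, plus strand), the polo-like kinase of mitotic entry, was at 27.4, 27.3, 36.4 and 39.9 FPKM in cKO_DSS 1 to 4, against 34.4, 34.0, 31.4 and 36.5 in cKO 1 to 4. The WT_DSS libraries 1 to 4 gave 24.5, 24.0, 29.4 and 23.1 FPKM, against 29.7, 38.1, 36.8 and 40.4 in WT 1 to 4. The cKO groups overlap, while WT_DSS lay below WT by a narrow margin between WT_DSS 3 and WT 1. Plk1 fell in WT_DSS against WT (-0.50 ± 0.13 SE, adjusted p = 0.0120), a call lost without WT 4 and WT_DSS 2 together, and it was the single G2/M gene to fall there. In cKO_DSS against cKO the checkpoint kinase Bub1b fell (-0.47 ± 0.11 SE, adjusted p = 0.0136). The checkpoint kinase Bub1, the Aurora kinases Aurka and Aurkb and Cdc20, which activates the anaphase-promoting complex, were not called in either.

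Of the 8 chromosome, centromere and spindle genes, 5 fell in cKO_DSS against cKO and none was called in WT_DSS against WT. Top2a (chr11:98992943-99024189, minus strand), the topoisomerase that untangles replicated chromosomes, was at 15.1, 22.2, 16.8 and 13.5 FPKM in cKO_DSS 1 to 4, against 24.3, 23.2, 23.1 and 22.5 in cKO 1 to 4. WT_DSS 1 to 4 had 19.1, 19.8, 17.8 and 21.1 FPKM, against 15.4, 15.6, 16.7 and 16.2 in WT 1 to 4. Groups do not overlap in either genotype, and cKO_DSS lay below cKO while WT_DSS lay above WT. Top2a fell by 0.46 ± 0.11 SE in cKO_DSS against cKO (adjusted p = 0.0123), a call lost without cKO_DSS 3 and 4 together. Its log2 fold change of 0.27 in WT_DSS against WT was not called.

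Mki67, the proliferation antigen Ki-67, averaged 20.1 ± 4.53 FPKM in cKO_DSS and 31.4 ± 1.39 in cKO (SD, n = 4 each; -0.65 ± 0.15 SE, adjusted p = 0.0111). It averaged 20.4 ± 4.24 FPKM in WT_DSS and 23.02 ± 1.65 in WT and was not called there. The spindle assembly factor Tpx2 (-0.44 ± 0.10 SE), the kinetochore motor Cenpe (-0.34 ± 0.08 SE) and the midzone motor Kif20a (-0.32 ± 0.10 SE) also fell in cKO_DSS against cKO. The call for Cenpe was lost without cKO_DSS 3 and 4 together. That for Kif20a was lost without WT_DSS 2, cKO_DSS 1, 2 or 3 or cKO 1, 2 or 4. The Kif20a call was also lost with limma voom on recovered reads, a shift to equal medians, quantile normalization or no FPKM filter. Leaving out WT 4 and WT_DSS 2 together lost it too. The chromosomal passenger survivin (Birc5), the centromeric histone Cenpa and the spindle motor Kif11 were not called, and Kif11, at 0.180 to 1.40 FPKM, rests on as few as 21 reads.

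The windows of the 3 G2/M genes given by library are shown with the same marking of matches. That of Top2a (chr11:99024140-99024439, minus strand) held 4 CHR and 6 CCAAT boxes, that of Plk1 (chr7:122159185-122159484, plus strand) 1 CHR and 1 CCAAT box, and that of Ccnb1 (chr13:100786437-100786736, minus strand) 2 CCAAT boxes and no CHR. None of them held an E2F site of the letters searched.
Top2a: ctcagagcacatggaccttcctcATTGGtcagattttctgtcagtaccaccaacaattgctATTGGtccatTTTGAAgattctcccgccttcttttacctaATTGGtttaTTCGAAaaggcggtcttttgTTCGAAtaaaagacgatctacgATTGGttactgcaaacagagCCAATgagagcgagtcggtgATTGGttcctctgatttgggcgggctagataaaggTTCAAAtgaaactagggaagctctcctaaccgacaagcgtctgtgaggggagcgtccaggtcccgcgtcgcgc
Plk1: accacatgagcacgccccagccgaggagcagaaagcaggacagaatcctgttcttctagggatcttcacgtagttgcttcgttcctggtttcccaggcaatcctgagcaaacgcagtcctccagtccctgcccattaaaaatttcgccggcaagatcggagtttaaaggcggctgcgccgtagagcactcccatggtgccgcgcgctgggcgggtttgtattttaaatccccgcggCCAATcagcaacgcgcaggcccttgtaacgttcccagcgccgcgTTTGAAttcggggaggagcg
Ccnb1: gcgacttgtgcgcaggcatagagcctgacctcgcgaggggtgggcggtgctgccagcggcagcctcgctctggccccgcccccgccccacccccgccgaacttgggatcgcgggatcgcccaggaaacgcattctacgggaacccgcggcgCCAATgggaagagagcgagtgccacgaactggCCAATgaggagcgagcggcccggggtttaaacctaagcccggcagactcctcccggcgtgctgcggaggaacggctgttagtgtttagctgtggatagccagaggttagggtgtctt

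The inhibitors did not move together. Cdkn1a (chr17:29090976-29100727, plus strand), p21, a p53 target that halts the cycle, was at 45.3, 45.7, 48.5 and 52.2 FPKM in cKO_DSS 1 to 4, against 53.5, 64.7, 63.3 and 61.6 in cKO 1 to 4. In WT_DSS 1 to 4 it was at 45.7, 46.8, 46.1 and 44.5 FPKM, against 71.0, 59.5, 74.4 and 61.3 in WT 1 to 4. Every DSS library lay below every water library, narrowly so between cKO_DSS 4 and cKO 1. Cdkn1a fell by 0.33 ± 0.09 SE in cKO_DSS against cKO (adjusted p = 0.0196), a call lost without cKO 2, 3 or 4, and by 0.52 ± 0.09 SE in WT_DSS against WT (adjusted p = 0.00143). Cdkn1b, p27, averaged 21.4 ± 0.52 FPKM in cKO_DSS and 20.1 ± 1.48 in cKO (SD, n = 4 each; 0.09 ± 0.07 SE, adjusted p = 0.481). It averaged 21.9 ± 1.31 FPKM in WT_DSS and 17.5 ± 1.27 in WT and rose there (0.30 ± 0.07 SE, adjusted p = 0.00890), a call lost with the GC correction.

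**Figure D4:**
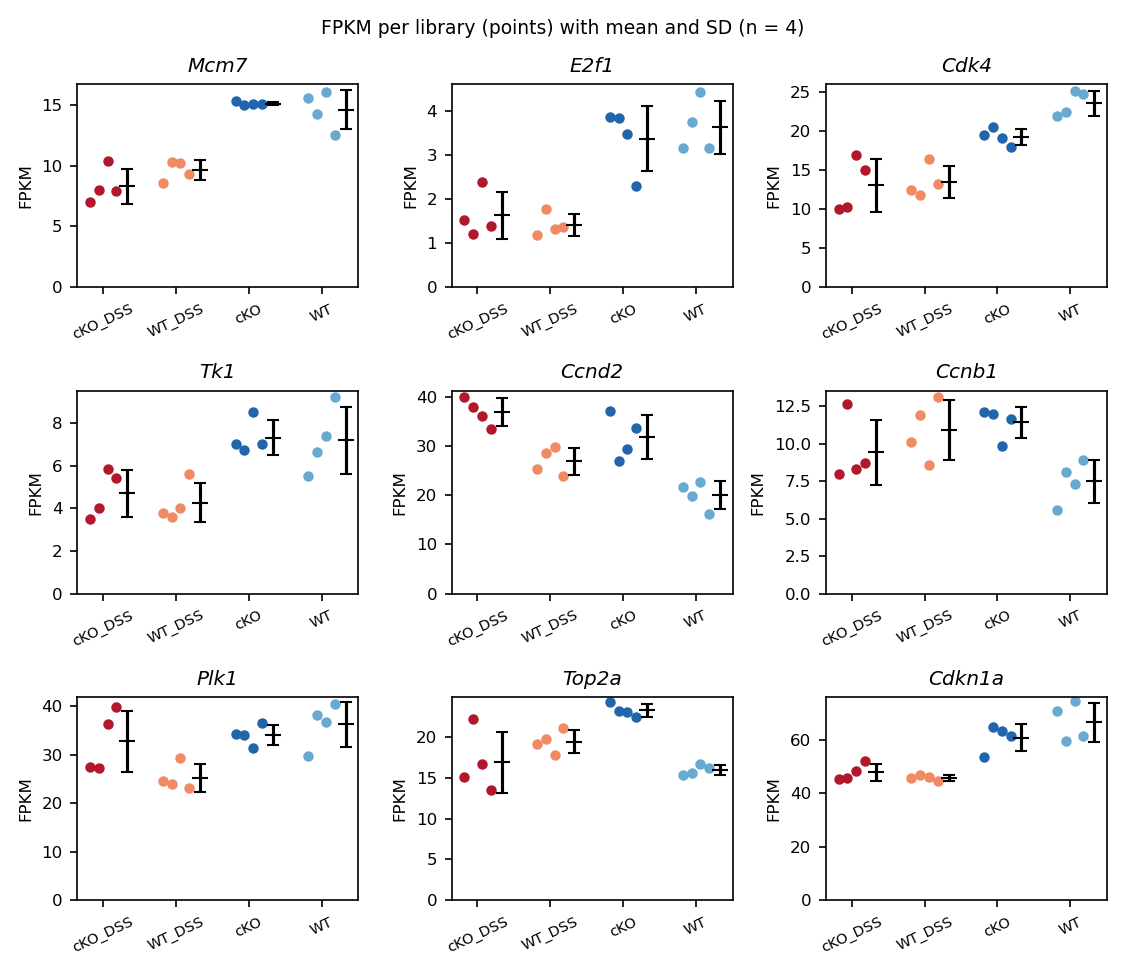
FPKM of Mcm7, E2f1, Cdk4, Tk1, Ccnd2, Ccnb1, Plk1, Top2a and Cdkn1a in each library (points), with bars for the group mean and SD. Pcna, the sliding clamp, is not shown, and Ccnd2 was added after its values were seen. Mcm7, Cdk4 and Cdkn1a are lower in every DSS library than in any water library, whereas Ccnb1 and Top2a have their lowest group mean in WT on water.

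Other genes of the pathway were counted from further lists, which were chosen, like the members, with earlier results of these data known. Of 35 other genes of G1/S and replication that were tested, 21 fell and none rose in cKO_DSS against cKO, among them the primase Prim1 (-0.66 ± 0.10 SE) and the chromatin assembly subunit Chaf1b (-0.72 ± 0.11 SE). Of the same 35 genes, 12 fell in WT_DSS against WT and none rose, led by the polymerase subunit Pold1 (-0.82 ± 0.13 SE), the uracil glycosylase Ung (-0.69 ± 0.12 SE) and Chaf1b (-0.63 ± 0.11 SE). Their median log2 fold change was -0.48 in cKO_DSS against cKO and -0.28 in WT_DSS against WT. Over all genes tested, 6.64% fell in cKO_DSS against cKO and 13.5% in WT_DSS against WT.

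Of 39 tested genes from a further list for G2/M, 14 fell and none rose in cKO_DSS against cKO, led by the spindle protein Tacc3 (-0.55 ± 0.11 SE), the checkpoint protein Mad2l1 (-0.46 ± 0.09 SE) and the microtubule bundler Nusap1 (-0.45 ± 0.10 SE). Those that rose in WT_DSS against WT were 4, the cytokinesis genes Anln (0.31 ± 0.09 SE) and Ect2 (0.42 ± 0.12 SE), Nusap1 (0.30 ± 0.10 SE) and the condensin subunit Smc4 (0.39 ± 0.13 SE), while the transcription factor Mybl2 fell (-0.68 ± 0.18 SE). Their median was -0.35 in cKO_DSS against cKO and 0.02 in WT_DSS against WT. Of all genes tested, 6.64% fell in cKO_DSS against cKO, while 15.0% rose and 13.5% fell in WT_DSS against WT. The shares of this list that rose and fell in WT_DSS against WT were below those. Of 13 tested genes of arrest and the p53 response, none was called in cKO_DSS against cKO. In WT_DSS against WT the p53 target Ccng1 (0.50 ± 0.14 SE), the antiproliferative gene Btg1 (0.25 ± 0.07 SE) and the retinoblastoma relative Rbl2 (0.36 ± 0.11 SE) rose and Phlda3, a p53 target, fell (-0.68 ± 0.18 SE). These stand beside the same shares of all genes.

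Between genotypes on water no member was called in limma, beside 0.0905% of all genes, and 16 of 44 had an unadjusted p under 0.05, beside 18.1% of all genes. Log2 fold changes of cKO against WT were above 0 in 35 of 44 members and in 18 of 19 G2/M genes, with medians of 0.26 for G2/M, 0.12 for G1/S and 0.01 over all genes tested. In 15 members every cKO library lay above every WT library, beside 7.85% of all genes, and in 1, Cdk4, below, beside 7.65%. The smallest p-values were those of Ccnd2 (0.64 ± 0.12 SE, adjusted p = 0.0530), Top2a (0.52 ± 0.11 SE, adjusted p = 0.0920), cyclin E2 gene Ccne2 (0.63 ± 0.16 SE, adjusted p = 0.124) and Ccnb1 (0.56 ± 0.15 SE, adjusted p = 0.131). Cdkn1a had a log2 fold change of -0.13 ± 0.09 SE (adjusted p = 0.442) and Cdkn1b of 0.19 ± 0.07 SE (adjusted p = 0.212). Without cKO_DSS 2, which enters this comparison only through the shared spread, Ccnd2, Top2a and Bub1 passed the threshold, beside 0.843% of all genes. Fold changes correlated with GC content across genes (Spearman rho -0.52), and the medians were 0.26 and 0.13 for G2/M and G1/S genes after the GC correction. Of the other pathway lists, none of the 35, 39 and 13 tested genes was called.

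After DSS, 1 of 44 members differed between genotypes, beside 3.70% of all genes called and 2.03% called higher. Ccnd2 was higher in cKO_DSS than in WT_DSS (0.44 ± 0.12 SE, adjusted p = 0.0494), in 4 of 4 libraries, and the call was lost without any 1 of 12 libraries: WT_DSS 1, 2 or 4, any of the 4 cKO_DSS libraries, WT 1, 2 or 3, or cKO 3 or 4. The next smallest p-values were those of Plk1 (0.35 ± 0.13 SE, adjusted p = 0.141), Ccnb2 (-0.29 ± 0.14 SE, adjusted p = 0.238) and Cenpe (-0.17 ± 0.08 SE, adjusted p = 0.264). Cdkn1a had a log2 fold change of 0.06 ± 0.09 SE (adjusted p = 0.732) and Cdkn1b of -0.03 ± 0.07 SE (adjusted p = 0.858). The medians were -0.06 for G2/M, -0.03 for G1/S and -0.01 over all genes tested. GC content correlated with the fold changes across genes (Spearman rho 0.375). After the GC correction the medians were -0.039 for G2/M and -0.043 for G1/S. In the other pathway lists no gene was called. Of the crypt base stem cell markers Smoc2 was lower in cKO_DSS than in WT_DSS, and the part of these cells in the result was not tested.

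**Figure D5:**
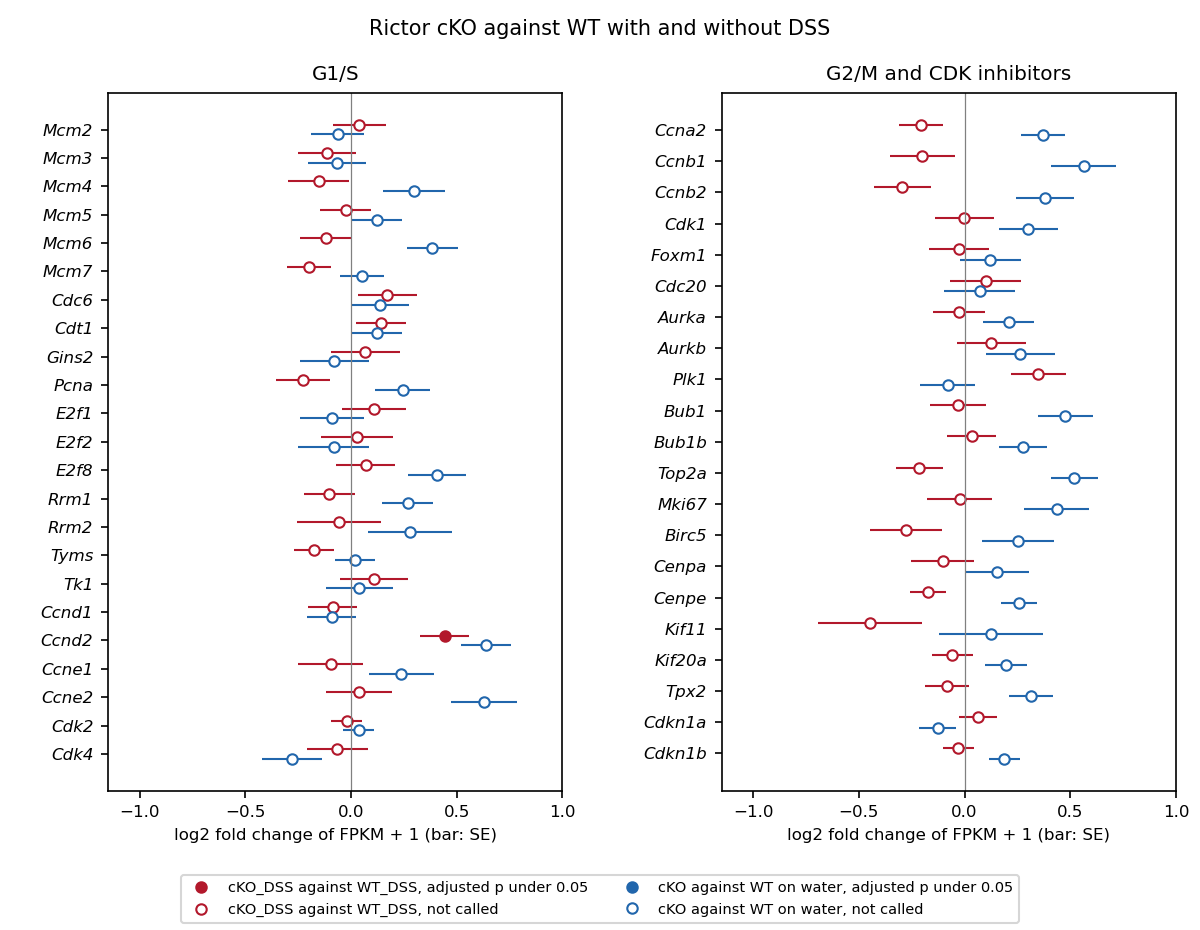
Log2 fold change of FPKM + 1 between genotypes for each member, cKO_DSS against WT_DSS and cKO against WT on water (points, with bars for the SE), filled where the adjusted p is under 0.05. On water 18 of 19 G2/M points lie right of 0, Plk1 being the exception, with a median of 0.26, after DSS they centre on -0.06, and Ccnd2 after DSS is the only filled point.

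Whether the response to DSS differed between genotypes was tested with the interaction, the log2 fold change of cKO_DSS against cKO minus that of WT_DSS against WT. All 4 groups enter it, so it shares its libraries with every comparison above. No member was called, beside 0.151% of all genes, and 15 of 44 had an unadjusted p under 0.05, beside 23.2% of all genes. The interaction was below 0 in 17 of 19 G2/M genes and 14 of 23 G1/S genes, with medians of -0.40 and -0.15 against -0.01 over all genes tested. Top2a (-0.73 ± 0.16 SE, adjusted p = 0.0605), Ccna2 (-0.58 ± 0.15 SE, adjusted p = 0.0775), Cenpe (-0.43 ± 0.12 SE, adjusted p = 0.0947) and Ccnb2 (-0.68 ± 0.19 SE, adjusted p = 0.0962) had the smallest p-values. Cdkn1a had an interaction of 0.19 ± 0.12 SE (adjusted p = 0.355) and Cdkn1b of -0.22 ± 0.10 SE (adjusted p = 0.220). Without cKO_DSS 2, the highest of its group in the G2/M mean, 7 members passed the threshold, beside 9.63% of all genes: Top2a, Ccna2, Ccnb1, Ccnb2, Cenpe, Tpx2 and Bub1, all G2/M genes and all below 0. Top2a also passed without cKO_DSS 1 or without WT_DSS 3. Of the other G2/M list 1 of 39 genes, Nusap1, was called (-0.76 ± 0.13 SE, adjusted p = 0.0401), and none of the other lists. Interaction values correlated with GC content across genes (Spearman rho 0.59), and after the GC correction the medians were -0.28 for G2/M and -0.15 for G1/S.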

How the data were processed

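Total RNA was sequenced in 16 libraries, grouped and numbered by the labels. The deposited values are FPKM per gene with the gene's length; featureCounts 1.5.0-p3, mm10 and DESeq2 1.20.0 are named in the submitters' processing notes. What aligner, annotation and strand setting the authors used is not given in the sources used here, so overlapping or antisense genes may share reads.

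FPKM times gene length gave whole reads within 0.05, which showed the depth; the tests use the spread between libraries, not counting error. Genes reaching 1 FPKM in 4 or more libraries were fitted as log2(FPKM + 1) with limma 3.58.1 in R 4.3.3 (4 group means, all 16 libraries, eBayes with trend), with Benjamini-Hochberg adjustment over 13255 genes in each of 5 comparisons, two-sided. The fit was run on simulated reads with the same dispersion in every library and no GC trend, outlying library or sex difference. That check therefore does not cover these features of the data. GC content came from each gene's longest GENCODE M21 transcript, for 97.1% of genes, and was removed by loess with a span of 0.5. RefSeq promoters were matched by symbol.

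Members and gene lists were chosen with earlier results of these data known. Statistics are given for members called in a comparison, or for the 4 smallest p where fewer than 4 were called, and always for Cdkn1a and Cdkn1b. Library values are given for 1 member per role, that with the smallest p in WT_DSS against WT and a call where there was one, and for Ccnd2, which was added after its values were seen, as was Bub1. Replicate numbers did not pair libraries (correlations of -0.20 to 0.30 between same-numbered libraries), so no block was used.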

Additional observations from a re-analysis of the deposited data

Results flagged for a closer look

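In 15 of 188 groups of 4 libraries, 1 library lay far from the other 3; chance sets off about 1 in 20 such groups. WT 4 accounts for 5: it was lowest for Mcm4 at 7.33 FPKM (others 12.5 to 13.1) and Rrm1 at 4.65 (6.59 in each of the others), and highest for E2f2 at 8.97 (4.63 to 5.22), Aurka at 10.3 (6.69 to 7.22) and Cenpa at 9.20 (5.34 to 5.66). WT 4 also had the lowest Dbp of its group, 1.52 FPKM. The library cKO_DSS 2 was highest for Ccnb1 at 12.6 FPKM (7.98 to 8.71), Bub1 at 5.57 (3.34 to 3.53) and Cenpe at 4.59 (3.52 to 3.58). The library cKO_DSS 3 was highest for Mcm5 at 11.8 FPKM (8.14 to 8.49). In WT_DSS, replicate 4 was highest for Rrm2 at 11.2 FPKM (6.02 to 6.38) and replicate 3 for Cenpe at 4.92 (4.17 to 4.30). In cKO, replicate 1 was lowest for Bub1 at 4.75 FPKM (5.27 to 5.37) and replicate 3 for Bub1b at 7.19 (7.84 to 7.97). In WT, replicate 3 was highest for E2f8 at 5.31 FPKM (4.55 to 4.66) and replicate 1 for Kif11 at 1.17 (0.458 to 0.502). What sets these libraries apart was not tested.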

How the results depend on the processing

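Members called in cKO_DSS against cKO, 25 as reported, numbered 20 to 28 with 1 library left out and 2 with the Y-linked covariate. With sample quality weights they numbered 31, beside 3060 of all 13255 genes called. In WT_DSS against WT, 16 as reported, they numbered 14 to 18 and, with the covariate, 6. Sample quality weights gave 23 there, beside 5189 genes called. In cKO_DSS against WT_DSS, 1 as reported, they numbered 0 to 1, and 0 in 10 other alternatives: the 8 libraries compared alone, the Y-linked covariate, limma voom on recovered reads, no filter, a pseudocount of 0.1, quantile normalization, mitochondrial reads left out, without WT 4 and WT_DSS 2, without cKO_DSS 3 and 4, and the replicate block. With sample quality weights they numbered 6, beside 3485 of all 13255 genes called. On water, 0 as reported, they numbered 0 to 3 with 1 library left out and 8 with sample quality weights, beside 267 genes called. Members numbered 1 with the 8 libraries alone, a 5 FPKM filter, voom, a shift to equal medians, quantile normalization or mitochondrial reads left out. Each of those fits called 10 to 23 genes in all. For the interaction, 0 as reported, members called numbered 0 to 7 with 1 library left out. Voom and the filter at 5 FPKM each called 1 member, beside 42 and 46 genes in all. Sample quality weights called 11 members, beside 3728 of all 13255 genes. The filter at 5 FPKM left 35 members and the 8 libraries alone 43.

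The G2/M median minus the G1/S median on water, 0.14 as reported, was 0.088 to 0.30 with 1 library left out and 0.30 without WT 4 and WT_DSS 2. In WT_DSS against WT, 0.27 as reported, it was 0.21 to 0.52 and 0.53. In cKO_DSS against cKO it was 0.07 to 0.19, in cKO_DSS against WT_DSS -0.13 to 0.02 and for the interaction, -0.25 as reported, -0.35 to -0.17 and, with the GC correction, -0.13. In cKO_DSS against WT_DSS, Cdkn1a turned to -0.0026 with the GC correction and -0.0079 without cKO_DSS 3 and 4, and Cdkn1b to 0.060 with the GC correction and, with 1 library left out, ranged from -0.053 to 0.0087, the highest without WT_DSS 1. In the interaction Cdkn1b turned to 0.0032 with the GC correction. These were never called, and the causes were not tested.

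With the replicate block 28 members were called in cKO_DSS against cKO and 18 in WT_DSS against WT, beside 1898 and 3857 genes in all. Replicate numbers did not pair the libraries. Of 960 values of single genes with 1 library left out, 905 kept their direction and their side of the threshold; of 824 under other alternatives, 729 did. An edgeR test on recovered reads, planned as an alternative, was not run because the deposited values are FPKM. Low genes such as Kif11 and E2f1 are limited by their reads.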
